A study of Mus musculus with 32 samples.

Results

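This comparison asks whether the response to LPS differed between macrophages with and without Trem2 when the growth factor M-CSF was scarce. It rests on the 16 low M-CSF libraries of a series of 32, and for each gene it is the difference of differences (knockout with LPS minus knockout without LPS) minus (wild-type with LPS minus wild-type without LPS). The cells were mouse bone marrow-derived macrophages of strain C57BL/6 in both genotypes, wild-type (WT) or from Trem2-/- mice (T2KO), a line that the labels credit to Turnbull et al. and that all knockout groups carry. The labels describe an overnight culture in complete RPMI with 0.5% or 10% LCCM and, for some cells, 10 ng/ml LPS for 4 hours. Which percentage belongs to which medium is inferred here (0.5% as low). The 4 groups, with 4 libraries each, were WT without LPS, WT with LPS, T2KO without LPS and T2KO with LPS, all in low M-CSF. The labels give neither the age or number of the mice nor the deleted part of Trem2. They also do not say if the 4 libraries of a group are separate animals, so p-values measure the spread between these libraries, which may be technical.

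TREM2 is a surface receptor of macrophages and microglia that binds lipids and signals through the adaptor DAP12 (encoded by Tyrobp), the kinase SYK and PI3-kinase. M-CSF acts through its receptor CSF1R to sustain the survival and division of macrophages. LPS, a component of the outer membrane of Gram-negative bacteria, is sensed by TLR4 and switches on inflammatory genes through NF-kB and interferon-stimulated genes through IRF3 and type I interferon. In such macrophages LPS also stops division and shifts energy metabolism towards glycolysis.

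A positive interaction means that the log2 change with LPS was more positive in knockout than in wild-type cells, which holds for a stronger rise, a weaker fall or a turn from fall to rise. Levels are given as CPM, counts scaled by library total and TMM factor, as mean ± SD of 4 libraries, and the interaction is given on the log2 scale ± SE. Library totals ran from 3068863 to 15585423 counts in low M-CSF. A count of 3, the most that an observed 0 allows, corresponded to 0.192 to 0.978 CPM by library total alone, without the TMM factor. On the CPM scale used here this floor is higher in libraries with LPS (TMM factors 0.5979 to 0.7516). It is lower in those without LPS (1.149 to 1.243). The deepest group was T2KO without LPS (5333519 to 15585423) and the shallowest WT with LPS (3111552 to 4547552). Within a group, library 1 was most like 3 and library 2 most like 4, but library 4 of WT without LPS was least like 2. Comparing counts pair by pair, chi-square divided by its degrees of freedom was 4.17 to 10.3 in 7 of the 8 pairs of 1 with 3 or 2 with 4. It was 18.8 in the eighth (libraries 2 and 4 of WT without LPS), where library 4 gave 15.4 against 3 and 18.3 against 1. The 16 other pairs gave 15.4 to 77.9. The pairs of 1 with 3 and of 2 with 4 differed by more than sampling noise, which does not show that they are independent samples. They were kept as separate libraries. The count over all genes, most list counts and most named calls are also given with these pairs summed to 2 samples a group. There a p marked "summed" is edgeR's adjusted p in that fit, and those printed as 0.05 did not pass.

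Of 11244 genes tested, 1800 passed for the interaction (16%, edgeR's quasi-likelihood test, Benjamini-Hochberg adjusted p under 0.05). The interaction was positive for 845 (7.52% of genes tested) and negative for 955 (8.49%). The median size among genes that passed was 1.2 on the log2 scale, and 1780 of the 1800 had the same sign in libraries 1 and 3 alone and in libraries 2 and 4 alone. With the pairs summed, 91 genes passed of 12020 tested (0.757%), 53 positive and 38 negative, and all 91 were among the 1800. At an unadjusted p under 0.05 that fit gave 2133 of the 12020 in both directions, the background for such counts of the lists below. These fits reuse the libraries that gave the 1800 calls. The shared signs and this overlap are therefore no separate support for the calls. The median interaction over all genes was -0.13, and with the knockout LPS libraries rescaled to bring it to 0, the split turned to 1102 positive (9.8%) and 605 negative (5.38%). RLE size factors gave 1039 and 671, and a fit to the 16 low M-CSF libraries alone gave 959 genes, 590 positive and 369 negative. The number of negative genes fell to 629 without T2KO LPS library 1 and to 623 without WT library 2 without LPS.

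Both genotypes responded strongly to LPS: 6824 genes passed in WT (60.7%) and 7590 in T2KO (67.5%), from separate libraries. Among the 845 genes with a positive interaction, the fitted change was upward in both genotypes for 396, downward in both for 172 and downward in WT but upward in T2KO for 277. Among the 955 with a negative interaction, it was downward in both for 360, upward in both for 168 and upward in WT but downward in T2KO for 427. For 105 of the 1800 genes both responses passed on their own in opposite directions, with WT down and T2KO up for 47 and the reverse for 58. The genotype difference passed for 1879 genes without LPS (16.7%) and for 2147 with LPS (19.1%). Of the 845 positive genes, 369 were lower in T2KO without LPS and 444 were higher with LPS, 75 of them both. Of the 955 negative genes, 258 were higher without LPS and 560 lower with LPS, 49 of them both. The interaction is computed from these same libraries, so these counts describe the same values and are no separate test.

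**Figure D1:**
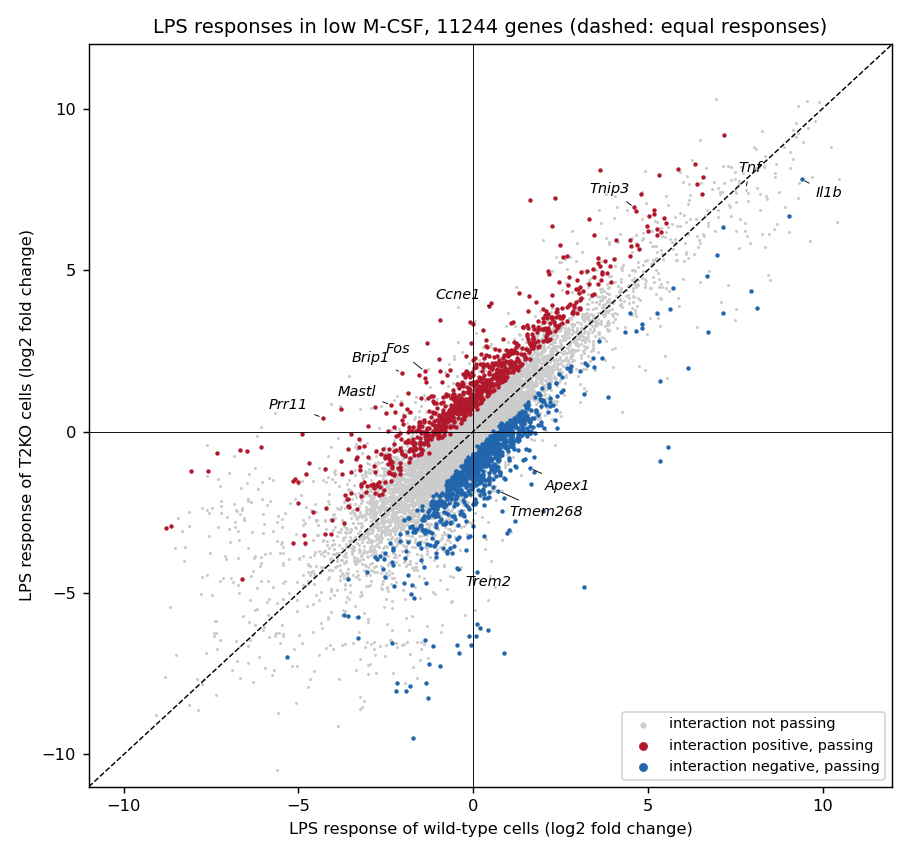
LPS response (log2 fold change) of wild-type cells on the horizontal axis and of T2KO cells on the vertical axis in low M-CSF, 1 point per gene for the 11244 genes tested. Red points are the 845 genes that passed with a positive interaction and lie above the dashed line of equal responses, and blue points are the 955 that passed with a negative one and lie below it.

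The gene with the smallest adjusted p was Trem2 itself (Entrez 83433, chromosome 17 at 48346401 to 48352276). Its level was 438, 371, 516 and 517 CPM in the wild-type libraries without LPS, 289, 328, 312 and 399 with LPS, 118, 99, 132 and 110 in the knockout libraries without LPS and 4.01, 9, 6.66 and 4.37 with LPS. Every knockout library lay below every wild-type library in both conditions (exact permutation test of log2(CPM + 1), two-sided, p = 0.0286 in both, the lowest p possible with 70 arrangements). The T2KO level with LPS was 5.23% of that without LPS, against 72.1% in WT, an interaction of -3.76 ± 0.30 (edgeR adjusted p = 9.6e-11, and 0.00029 with the pairs summed). In CPM the fall was no larger in T2KO (109 CPM) than in WT (129 CPM), so the negative interaction is one of proportion. A sign that turns on the CPM scale was found for 38 of the 1800 genes (2.11%). The libraries were primed at the poly(A) tail, so these reads count transcripts that still reach it, and whether they fall within the deleted part is not given. Treml1, a receptor gene beside Trem2 (Entrez 71326, chromosome 17 at 48359916 to 48367176), held 591 counts in the 4 knockout libraries without LPS (12 ± 1.14 CPM) and 0 with LPS, against 45 and 5 counts in WT. It passed (edgeR adjusted p = 0.0089), though not without WT LPS library 3 (edgeR adjusted p = 0.057) or with pairs summed (0.064).

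The adaptor gene of the receptor did not pass. Tyrobp went from 1310 ± 274 to 1070 ± 127 CPM in wild-type and from 1210 ± 103 to 898 ± 145 CPM in knockout cells, an interaction of -0.13 ± 0.23 (edgeR adjusted p = 0.72). Of 25 genes of TREM2 and DAP12 signalling tested, 4 passed with a positive and 2 with a negative interaction (16 and 8%, beside 7.52 and 8.49% of all genes), and 19 did not pass. Ptpn6, which encodes the inhibitory phosphatase SHP-1, rose with LPS in T2KO and did not pass in WT, from 297 ± 28.6 to 288 ± 28.8 CPM in wild-type and from 218 ± 50.5 to 599 ± 150 CPM in knockout cells. For Ptpn6 the interaction was 1.5 ± 0.33 (edgeR adjusted p = 0.0023, 0.11 summed). Pik3cb, a catalytic subunit of PI3-kinase, did likewise, from 16.5 ± 2.61 to 16 ± 3.92 CPM in wild-type and from 14.4 ± 3.02 to 40.8 ± 10.8 CPM in knockout cells. The interaction of Pik3cb was 1.52 ± 0.29 (edgeR adjusted p = 0.00061, 0.061 summed). Vav3, a guanine nucleotide exchange factor, went from 54.9 ± 24.9 to 40.5 ± 5.26 CPM in wild-type and from 42 ± 18.9 to 118 ± 47.9 CPM in knockout cells. It passed with 1.92 ± 0.43 (edgeR adjusted p = 0.0024, 0.12 summed), but in libraries 2 and 4 alone its value was 0.20 (edgeR adjusted p = 0.66). With the pairs summed, Trem2 was the 1 member of this list that passed. The M-CSF receptor Csf1r fell with LPS in T2KO, from 944 ± 169 to 842 ± 166 CPM in wild-type and from 1490 ± 311 to 842 ± 154 CPM in knockout cells, but the interaction did not pass (-0.66 ± 0.27, edgeR adjusted p = 0.091). Its ligand Csf1 was induced in both genotypes, from 6.02 ± 1.93 to 626 ± 20 CPM in wild-type and from 8.75 ± 1.58 to 708 ± 106 CPM in knockout cells. For Csf1 the interaction was -0.36 ± 0.24 (edgeR adjusted p = 0.3).

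**Figure D2:**
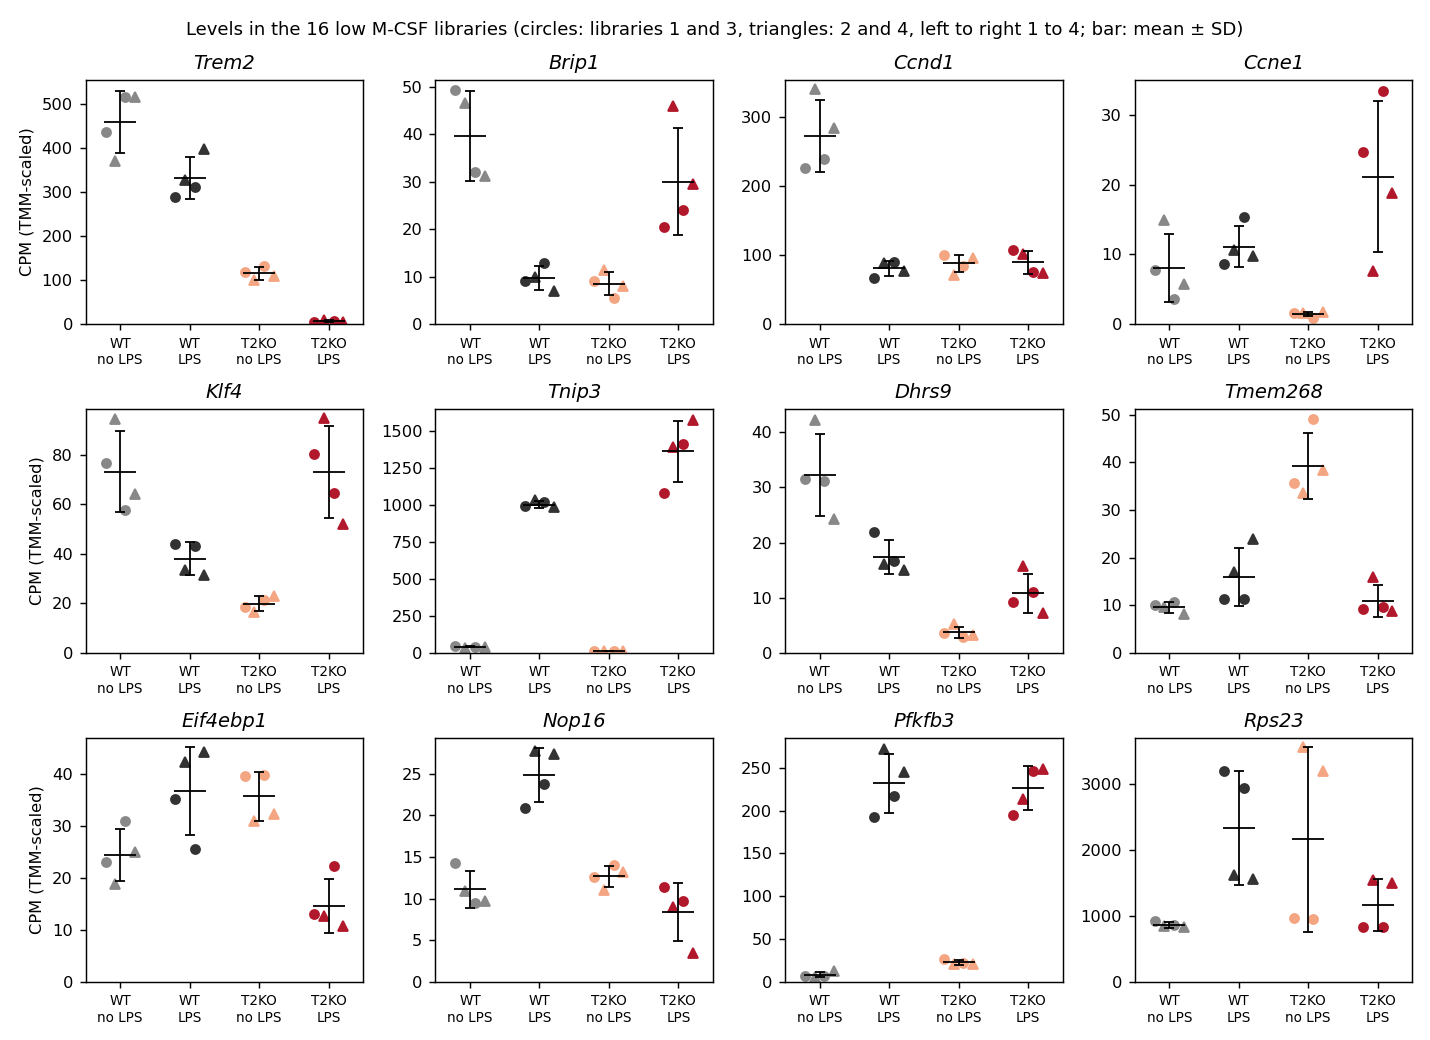
CPM (TMM-scaled) of 12 genes in each of the 16 low M-CSF libraries, with the mean and SD of each group of 4. Trem2 is lowest in T2KO with LPS (4.01 to 9 CPM), Klf4 and Brip1 fall in WT and rise in T2KO, and for Rps23 libraries 1 and 3 (circles) do not overlap 2 and 4 (triangles) in any of the 4 groups, with the smallest gap in WT without LPS (857 to 843 CPM).

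Genes of cell division lay mainly on the positive side. Of 45 cell cycle genes tested, 13 passed with a positive and 0 with a negative interaction (28.9 and 0%, beside 7.52 and 8.49% of all genes), and their median interaction was 0.632, against -0.133 over all genes. At an unadjusted p under 0.05 edgeR gave 17 and 2, and DESeq2 passed 16 and 0. The counts were 13 and 0 with an offset for GC content and length (28.9 and 0%, beside 6.32 and 7.44% of all genes) and 4 and 0 with the pairs summed. Between genotypes, 39 of the 45 were lower and 0 higher in T2KO without LPS (8.97% of all genes were lower and 7.74% higher), and with LPS 17 were lower and 4 higher (10.9 and 8.2% of all genes). Ccnd1, the cyclin D1 that starts the cycle in response to growth factors, was measured at 226, 341, 240 and 285 CPM in the wild-type libraries without LPS, 66.6, 88.4, 90.1 and 77.4 with LPS, 100, 71.3, 84.6 and 95.8 in the knockout libraries without LPS and 107, 102, 75.5 and 74.3 with LPS. The WT libraries without LPS were high, and the other 3 groups overlapped (1.79 ± 0.27, edgeR adjusted p = 2.2e-05, 0.027 with the pairs summed). Uhrf1, which recruits maintenance DNA methylation at replication forks, had the same shape, from 16.6 ± 5.5 to 2.02 ± 0.694 CPM in wild-type and from 1.49 ± 0.327 to 1.7 ± 0.246 CPM in knockout cells. The interaction of Uhrf1 was 3.18 ± 0.54 (edgeR adjusted p = 0.00012, 0.025 summed). Ccne1, the cyclin E1 of entry into S phase, instead rose in T2KO. Its level was 7.78, 14.9, 3.65 and 5.71 CPM in the wild-type libraries without LPS, 8.61, 10.7, 15.4 and 9.84 with LPS, 1.52, 1.53, 0.917 and 1.68 in the knockout libraries without LPS and 24.7, 7.66, 33.5 and 18.9 with LPS. For Ccne1 the interaction was 3.44 ± 0.50 (edgeR adjusted p = 1.7e-05, 0.0041 summed). Its T2KO libraries without LPS lay below all others, and those with LPS overlapped WT. Cdt1, a licensing factor of replication origins, fell in WT from 12.9 ± 5.7 to 1.01 ± 0.751 CPM, and was 7.52 ± 2.1 and 5.05 ± 2.09 CPM in T2KO (3.03 ± 0.57, edgeR adjusted p = 0.00052, 0.037 summed). The WT LPS libraries held 11 counts of Cdt1 together, so that level lies near the floor and the size of its fold is uncertain. Ccnd2, cyclin D2, was induced by LPS in both genotypes and more in T2KO, from 33.6 ± 6.31 to 1210 ± 60.4 CPM in wild-type and from 22.9 ± 2.48 to 2440 ± 658 CPM in knockout cells. The interaction of Ccnd2 was 1.56 ± 0.24 (edgeR adjusted p = 2.6e-05, 0.05 summed).

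Several of the most positive genes outside the list also serve DNA replication, repair or mitosis. Brip1, a helicase of DNA crosslink repair (Entrez 237911, chromosome 11 at 86058136 to 86201215), was measured at 49.3, 46.5, 32 and 31.2 CPM in the wild-type libraries without LPS, 8.95, 9.92, 12.9 and 6.85 with LPS, 9.12, 11.3, 5.41 and 7.98 in the knockout libraries without LPS and 20.4, 46, 24.1 and 29.6 with LPS. WT libraries fell with LPS without overlap and T2KO libraries rose without overlap (3.86 ± 0.37, edgeR adjusted p = 8e-09, 0.00029 summed). Mastl, the Greatwall kinase of mitotic entry, went from 32 ± 6.45 to 6.14 ± 3.62 CPM in wild-type and from 4.54 ± 1.58 to 8.16 ± 1.38 CPM in knockout cells. For Mastl the interaction was 3.16 ± 0.37 (edgeR adjusted p = 5.3e-07, 0.0034 summed). Rad18, a ubiquitin ligase of damage-tolerant replication, moved from 15.7 ± 3.81 to 5.3 ± 2.87 CPM in wild-type and from 1.99 ± 0.948 to 6.35 ± 2.87 CPM in knockout cells. The interaction of Rad18 was 3.31 ± 0.57 (edgeR adjusted p = 0.00017, 0.025 summed). Kif4, a chromosome-binding kinesin, did not pass in WT and rose in T2KO, from 22.6 ± 6.26 to 22.3 ± 11.4 CPM in wild-type and from 3.53 ± 2.09 to 37.2 ± 8.02 CPM in knockout cells. For Kif4 the interaction was 3.33 ± 0.53 (edgeR adjusted p = 4.9e-05, 0.025 summed). Prr11, a gene active in dividing cells (Entrez 270906, chromosome 11 at 87089156 to 87108714), fell in WT from 29.4 ± 9.75 to 1.45 ± 0.536 CPM and was low in T2KO in both conditions, at 2.61 ± 1.63 and 3.38 ± 4.33 CPM (4.74 ± 0.79, edgeR adjusted p = 9.9e-05, 0.025 summed). It rested on 15 counts in the WT LPS libraries, and in libraries 2 and 4 alone its value was 1.68 (edgeR adjusted p = 0.35). Of the 15 most positive genes under the naming rule, with interactions from 3.02 to 5.80, 14 were lower in T2KO than in WT without LPS, 13 were higher with LPS, and 12 passed with the pairs summed. The value of 5.80 belongs to Kcnj10, a potassium channel gene with 0 counts in the WT LPS libraries, which lost its call without any of 6 single libraries (edgeR adjusted p 0.05 to 0.11), and no fold is read from it.

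The promoters of the 2 most positive and 2 most negative named genes that also passed with the pairs summed are shown to give the sequence at the ends of the ranking. The condition on the summed pairs was added after the values were seen. They are RefSeq's for GRCm38.p6 (mm10), from 250 bases before to 50 bases after the start of the gene. Capitals mark matches on either strand to 5 searched motifs: an interferon-stimulated element (GAAA, any 2 bases, GAAA), TGACGTCA (cyclic AMP response element), TGANTCA (AP-1), a loose NF-kB motif (GGG, any 5 bases, CC) and CACGTG (E-box), where matches may overlap.
Prr11, chr11:87108665-87108964, minus strand: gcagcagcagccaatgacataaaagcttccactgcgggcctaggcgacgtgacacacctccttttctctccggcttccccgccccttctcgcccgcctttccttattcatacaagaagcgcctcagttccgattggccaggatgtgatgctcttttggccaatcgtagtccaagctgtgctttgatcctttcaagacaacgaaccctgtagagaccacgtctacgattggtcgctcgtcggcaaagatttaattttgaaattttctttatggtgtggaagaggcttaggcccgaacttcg
Brip1, chr11:86201144-86201443, minus strand: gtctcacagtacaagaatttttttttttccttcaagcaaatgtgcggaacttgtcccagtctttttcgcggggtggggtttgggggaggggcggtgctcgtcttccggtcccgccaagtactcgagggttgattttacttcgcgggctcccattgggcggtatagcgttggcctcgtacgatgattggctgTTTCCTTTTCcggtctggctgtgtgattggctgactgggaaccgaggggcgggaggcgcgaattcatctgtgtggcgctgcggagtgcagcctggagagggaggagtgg
Trem2, chr17:48346151-48346450, plus strand: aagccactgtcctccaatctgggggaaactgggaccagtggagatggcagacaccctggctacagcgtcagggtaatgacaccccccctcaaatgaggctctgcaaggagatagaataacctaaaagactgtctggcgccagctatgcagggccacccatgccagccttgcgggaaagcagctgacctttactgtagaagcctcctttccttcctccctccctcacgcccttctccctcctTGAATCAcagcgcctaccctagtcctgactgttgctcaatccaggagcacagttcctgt
Apex1, chr14:50924699-50924998, plus strand: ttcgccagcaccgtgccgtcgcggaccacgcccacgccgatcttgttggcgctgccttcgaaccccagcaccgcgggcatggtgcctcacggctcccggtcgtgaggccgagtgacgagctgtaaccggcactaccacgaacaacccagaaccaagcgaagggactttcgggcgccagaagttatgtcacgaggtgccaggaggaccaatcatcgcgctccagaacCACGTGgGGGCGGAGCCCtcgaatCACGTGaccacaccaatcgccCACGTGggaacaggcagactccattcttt
The window of Brip1 holds a match to the interferon-stimulated element, that of Trem2 a match to TGANTCA, and that of Apex1 matches to CACGTG and the loose NF-kB motif. None of the 5 is in the window of Prr11. Among tested genes with a promoter (9096), 4.05% held the interferon-stimulated element, 3.68% TGACGTCA, 6.16% TGANTCA, 71.7% the loose NF-kB motif and 12% CACGTG. The shares were 5.04, 4.45, 6.97, 72 and 10.7% among 674 genes with a positive interaction and 2.65, 3.53, 5.04, 69.2 and 13.7% among 793 with a negative one. Over all 32851 promoters in the table they were 3.44, 1.79, 7.81, 50.8 and 7.15%. These shares are descriptions, and a match is not evidence of binding.

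Immediate-early transcription factors, the first genes that a stimulus switches on, had more positive than negative calls. Of 22 tested, 6 passed with a positive and 2 with a negative interaction (27.3 and 9.09%, beside 7.52 and 8.49% of all genes), with a median of 0.755. With the pairs summed 2 and 0 passed. At an unadjusted edgeR p under 0.05 the summed fit gave 7 and 2 (over all genes 2133 of 12020, both directions). Klf4, a zinc-finger factor of macrophage differentiation (Entrez 16600, chromosome 4 at 55527137 to 55532475), was measured at 76.6, 94.4, 57.5 and 64.1 CPM in the wild-type libraries without LPS, 44.1, 33.5, 43.2 and 31.2 with LPS, 18.5, 16.3, 21.3 and 23 in the knockout libraries without LPS and 80.3, 94.6, 64.5 and 52 with LPS. WT libraries with LPS all lay below those without, and T2KO libraries with LPS all lay above those without (2.82 ± 0.28, edgeR adjusted p = 1.5e-08, 0.00051 summed). Fos, a subunit of AP-1, was measured at 95.3, 178, 105 and 200 CPM in the wild-type libraries without LPS, 52, 64.9, 51.7 and 53.5 with LPS, 40.1, 30.8, 37.9 and 32.7 in the knockout libraries without LPS and 212, 84.6, 153 and 60.2 with LPS, again with a fall in WT and a rise in T2KO (3.24 ± 0.36, edgeR adjusted p = 2.5e-07, 0.0041 summed). Jun, its partner in AP-1, went from 205 ± 45.5 to 310 ± 106 CPM in wild-type and from 156 ± 18.2 to 503 ± 112 CPM in knockout cells. The interaction of Jun was 1.10 ± 0.29 (edgeR adjusted p = 0.011, 0.18 summed), and 0.53 in libraries 1 and 3 alone (edgeR adjusted p = 0.098). The 2 negative members were Btg2 and Ier5. Btg2, an antiproliferative cofactor, went from 115 ± 34.2 to 678 ± 87.6 CPM in wild-type and from 235 ± 43.7 to 576 ± 128 CPM in knockout cells (-1.26 ± 0.28, edgeR adjusted p = 0.0023, 0.1 summed). Ier5 went from 83.4 ± 8.58 to 217 ± 45.8 CPM in wild-type and from 151 ± 45 to 203 ± 14.9 CPM in knockout cells (-0.95 ± 0.26, edgeR adjusted p = 0.011, 0.21 summed). Klf4 and Fos also passed in normal M-CSF, at 1.70 and 1.77 (edgeR adjusted p = 0.0014 and 0.014).

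Among feedback inhibitors of NF-kB and MAP kinases, Tnip3, Dusp4 and Dusp5 had positive interactions and started lower in T2KO. Of 27 genes of the NF-kB subunit and feedback list, 5 passed with a positive and 2 with a negative interaction (18.5 and 7.41%, beside 7.52 and 8.49% of all genes), and with the pairs summed 2 and 1. Tnip3, a partner of the ubiquitin editor A20, was measured at 47, 35.9, 40.1 and 41.6 CPM in the wild-type libraries without LPS, 990, 1030, 1020 and 982 with LPS, 12.6, 11, 11.8 and 9.18 in the knockout libraries without LPS and 1080, 1390, 1410 and 1570 with LPS. T2KO libraries lay below WT without LPS and above with LPS, with no overlap in either (2.33 ± 0.20, edgeR adjusted p = 7.3e-10, 0.0041 summed). Dusp4, a phosphatase of MAP kinases, went from 7.59 ± 1.85 to 16.7 ± 4.8 CPM in wild-type and from 1.78 ± 0.581 to 19.5 ± 2.8 CPM in knockout cells. For Dusp4 the interaction was 2.25 ± 0.33 (edgeR adjusted p = 2e-05, 0.017 summed). Dusp5, of the same family, went from 17.9 ± 5.4 to 48.6 ± 9.6 CPM in wild-type and from 7.25 ± 3.43 to 66.3 ± 15 CPM in knockout cells. It passed with 1.79 ± 0.40 (edgeR adjusted p = 0.0026, 0.05 summed), but in libraries 1 and 3 alone its value was 1.25 (edgeR adjusted p = 0.086). Ier3, a stress-inducible survival gene, had the opposite sign, from 24.6 ± 6.48 to 221 ± 51.3 CPM in wild-type and from 85.4 ± 20.6 to 192 ± 11.4 CPM in knockout cells. The interaction of Ier3 was -2.0 ± 0.30 (edgeR adjusted p = 2.1e-05, 0.028 summed). Nfkbia, which encodes the main inhibitor of NF-kB, reached 11400 ± 1160 CPM in WT and 11000 ± 2010 CPM in T2KO with LPS (-0.22 ± 0.25, edgeR adjusted p = 0.58). Socs3, a cytokine signalling inhibitor, gave 0.02 ± 0.40 (edgeR adjusted p = 0.98).

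Most inflammatory mediators did not pass. Of 28 cytokine genes 1 passed in each direction (3.57%), of 23 chemokine genes 1 was positive and 3 negative (4.35 and 13%), and of 26 genes of the LPS receptor complex and its proximal signalling 1 passed, the kinase gene Ripk1. Ripk1 went from 166 ± 45.3 to 95.7 ± 9.72 CPM in wild-type and from 134 ± 9.56 to 168 ± 23 CPM in knockout cells (1.12 ± 0.26, edgeR adjusted p = 0.0031, 0.16 summed). With the pairs summed 0 genes of the 3 lists passed edgeR's test. At an unadjusted p under 0.05 the cytokines gave 2 positive and 1 negative, the chemokines 1 and 3 and the LPS receptor list 3 and 0. Over all genes the summed fit gave 2133 of 12020 at that unadjusted p, in both directions. The shares in the 3 lists are at or below the background of 7.52 and 8.49% but for the negative chemokines. With the knockout LPS libraries rescaled, 5 genes of the LPS receptor list were positive and 0 negative (19.2 and 0%). That is above the 9.8% of all genes that were positive in that setting, where 5.38% were negative. Tnf rose from 11.5 ± 1.4 to 2550 ± 451 CPM in wild-type and from 13.1 ± 2.35 to 2340 ± 282 CPM in knockout cells. For Tnf the interaction was -0.31 ± 0.23 (edgeR adjusted p = 0.37). Il12b, a subunit of interleukin-12, rose from 2.02 ± 0.559 to 1960 ± 712 CPM in wild-type and from 3.65 ± 2.24 to 4010 ± 903 CPM in knockout cells. The interaction of Il12b was 0.29 ± 0.49 (edgeR adjusted p = 0.72). Cd14, the LPS co-receptor, gave 0.22 ± 0.25 (edgeR adjusted p = 0.57). A p that misses the threshold does not show equal responses: the median SE over all genes was 0.373.

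Il1b, which encodes interleukin-1β, passed with a negative interaction although its levels with LPS overlapped between genotypes. It was 14, 15.9, 14.5 and 9.9 CPM in the wild-type libraries without LPS, 9370, 8620, 9260 and 9550 with LPS, 34.8, 60.2, 17.6 and 42 in the knockout libraries without LPS and 9210, 8400, 8670 and 8570 with LPS. For Il1b the interaction was -1.59 ± 0.38 (edgeR adjusted p = 0.0044, 0.12 summed). In libraries 1 and 3 alone it was -0.90 (edgeR adjusted p = 0.13). All T2KO libraries started higher, and with LPS the groups overlapped. Il18, the related cytokine, rose more in T2KO, from 17.3 ± 4.47 to 224 ± 40.2 CPM in wild-type and from 13 ± 4.82 to 389 ± 52.5 CPM in knockout cells. The interaction of Il18 was 1.20 ± 0.30 (edgeR adjusted p = 0.0073, 0.16 summed), but was 0.35 in libraries 2 and 4 alone (edgeR adjusted p = 0.34). Among chemokines, Ccl6 went from 129 ± 19 to 156 ± 21.3 CPM in wild-type and from 134 ± 40.3 to 76.9 ± 16.1 CPM in knockout cells. For Ccl6 the interaction was -1.07 ± 0.26 (edgeR adjusted p = 0.0042, 0.18 summed). The other 3 chemokine calls were each lost on leaving out 1 library. Ccl22 rose from 0.47 ± 0.325 to 249 ± 72.9 CPM in wild-type and from 0.845 ± 0.767 to 72.2 ± 21.1 CPM in knockout cells, from 13 counts in the WT and 32 in the T2KO libraries without LPS. For Ccl22 the interaction was -2.35 ± 0.70 (edgeR adjusted p = 0.021, 0.1 summed), with -1.74 and 0.11 without T2KO library 1 without LPS, -1.33 and 0.3 in libraries 2 and 4 alone and 0.082 with limma-voom. Cxcl1 rose from 3.42 ± 3.51 to 201 ± 23.8 CPM in wild-type and from 0.887 ± 0.39 to 242 ± 20 CPM in knockout cells. Its interaction was 2.27 ± 0.56 (edgeR adjusted p = 0.0062, 0.12 summed), with 1.24 and 0.12 without WT library 2 without LPS, 0.44 and 0.67 in libraries 1 and 3 alone and 0.087 with limma-voom. Ccl3 rose from 43.1 ± 7.44 to 6100 ± 1310 CPM in wild-type and from 65.2 ± 14.5 to 5250 ± 910 CPM in knockout cells. It gave -0.81 ± 0.26 (edgeR adjusted p = 0.03, 0.29 summed), and 0.054 to 0.095 without T2KO LPS library 1 or 3, T2KO library 1 without LPS, WT LPS library 2 or 4, or WT library 1 or 3 without LPS. It also missed the threshold after rescaling (edgeR adjusted p = 0.071), with RLE factors (0.062), with the GC and length offset (0.05) and with the low M-CSF libraries alone (0.084).

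Interferon-stimulated genes were strongly induced in both genotypes, and 6 of 49 passed with a positive and 1 with a negative interaction (12.2 and 2.04%, beside 7.52 and 8.49% of all genes). Samd9l, an antiviral effector, rose from 104 ± 32.4 to 894 ± 440 CPM in wild-type and from 49.1 ± 9.18 to 1510 ± 236 CPM in knockout cells. The interaction of Samd9l was 1.84 ± 0.45 (edgeR adjusted p = 0.0058, 0.15 summed). Xaf1, a proapoptotic interferon target, rose from 51.5 ± 24.4 to 264 ± 63.7 CPM in wild-type and from 57.1 ± 21 to 752 ± 174 CPM in knockout cells. For Xaf1 the interaction was 1.35 ± 0.35 (edgeR adjusted p = 0.0085, 0.17 summed), and 0.65 in libraries 1 and 3 alone (edgeR adjusted p = 0.083). The RNA sensor gene Ifih1 rose from 55.3 ± 26.4 to 2000 ± 1230 CPM in wild-type and from 42.7 ± 10.2 to 4960 ± 1630 CPM in knockout cells. Its interaction was 1.68 ± 0.47 (edgeR adjusted p = 0.014, 0.18 summed), and 0.80 in libraries 1 and 3 alone (edgeR adjusted p = 0.061). The nucleotide kinase gene Cmpk2 rose from 30.3 ± 8.23 to 2550 ± 309 CPM in wild-type and from 35.5 ± 13.1 to 7200 ± 4090 CPM in knockout cells. For Cmpk2 the interaction was 1.28 ± 0.36 (edgeR adjusted p = 0.015, 0.18 summed), with 0.059 without T2KO LPS library 1 and 0.066 with the low M-CSF libraries alone. Rsad2, which encodes viperin, was high in T2KO without passing. Its level with LPS was 22900, 23300, 22800 and 20200 CPM in WT and 64900, 47300, 53300 and 37800 CPM in T2KO, without overlap, but the mean without LPS was also higher in T2KO (199 ± 79.9 against 106 ± 25.8 CPM, overlapping), and the interaction was 0.28 ± 0.30 (edgeR adjusted p = 0.55). Ifit3, the negative member, went from 18.7 ± 7.87 to 977 ± 104 CPM in wild-type and from 42.4 ± 24.1 to 920 ± 97.2 CPM in knockout cells. The interaction of Ifit3 was -1.26 ± 0.36 (edgeR adjusted p = 0.016, 0.15 summed), with -0.79 and 0.085 without T2KO library 1 without LPS and 0.058 with the low M-CSF libraries alone. With the pairs summed 0 of the 49 passed edgeR's test. At an unadjusted p under 0.05 it gave 7 positive and 2 negative (over all genes 2133 of 12020, both directions).

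Inflammatory caspases rose more in T2KO. Casp4, the mouse gene of the intracellular LPS sensor caspase-11, was measured at 19.5, 19.7, 17.2 and 18 CPM in the wild-type libraries without LPS, 249, 245, 225 and 201 with LPS, 14, 15.8, 14.1 and 16.4 in the knockout libraries without LPS and 602, 564, 442 and 523 with LPS. T2KO libraries were the highest with LPS, without overlap (1.51 ± 0.21, edgeR adjusted p = 1.4e-05, 0.05 summed). Casp1, the caspase that matures interleukin-1β, went from 100 ± 16.4 to 417 ± 145 CPM in wild-type and from 78 ± 37.6 to 962 ± 187 CPM in knockout cells. For Casp1 the interaction was 1.56 ± 0.35 (edgeR adjusted p = 0.0026, 0.14 summed). The death receptor gene Fas had the opposite sign, from 4.99 ± 2.34 to 103 ± 8.22 CPM in wild-type and from 10.2 ± 1.65 to 84.5 ± 6.25 CPM in knockout cells. The interaction of Fas was -1.29 ± 0.32 (edgeR adjusted p = 0.0062, 0.11 summed). The BCL2 family and cell death list counted 5 positive and 3 negative of 32 (15.6 and 9.38%, beside 7.52 and 8.49% of all genes), and 0 with the pairs summed. At an unadjusted edgeR p under 0.05 the summed fit gave 5 and 3 (over all genes 2133 of 12020, both directions).

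Genes of energy metabolism lay mainly on the negative side. For glycolysis and glucose uptake 0 passed with a positive and 6 with a negative interaction of 22 (27.3% negative, median -0.598), for the TCA cycle 0 and 7 of 25 (28%, median -0.327), and for the respiratory chain 3 and 17 of 70 (24.3%, median -0.538). Of all genes 7.52% were positive and 8.49% negative, with a median of -0.133. No glycolysis or TCA cycle gene was positive at an unadjusted edgeR p under 0.05 or by DESeq2. With the knockout LPS libraries rescaled, the negative counts were 3, 5 and 9 (13.6, 20 and 12.9%, beside 5.38% of all genes). The positive counts there were 0, 0 and 4 (5.71% for the last, beside 9.8%). With the GC and length offset 6, 7 and 12 were negative (27.3, 28 and 17.1%, beside 7.44% of all genes). In that setting 1, 0 and 6 were positive (4.55, 0 and 8.57%, beside 6.32%). With the pairs summed 1, 0 and 0 were negative and none positive by edgeR's test, against 3, 7 and 12 negative and 0, 0 and 2 positive at an unadjusted p under 0.05. Over all genes 2133 of 12020 had such an unadjusted p, in both directions. Pfkfb3, whose product makes the activator of phosphofructokinase, was measured at 7.15, 5.76, 7.01 and 12.9 CPM in the wild-type libraries without LPS, 193, 272, 217 and 245 with LPS, 26.4, 21.1, 22.1 and 20.3 in the knockout libraries without LPS and 195, 214, 246 and 248 with LPS. Both genotypes reached overlapping levels with LPS, but every T2KO library started above every WT library (-1.50 ± 0.27, edgeR adjusted p = 0.00023, 0.045 summed). Pfkl, the liver-type phosphofructokinase subunit, instead ended lower in T2KO, from 14.7 ± 1.19 to 78 ± 17.6 CPM in wild-type and from 20.7 ± 1.44 to 44.3 ± 6.51 CPM in knockout cells. For Pfkl the interaction was -1.30 ± 0.23 (edgeR adjusted p = 0.00023, 0.085 summed). Pgam1, phosphoglycerate mutase, also ended lower, from 200 ± 40.9 to 279 ± 40.5 CPM in wild-type and from 179 ± 38.4 to 118 ± 8.09 CPM in knockout cells. The interaction of Pgam1 was -1.08 ± 0.24 (edgeR adjusted p = 0.0027, 0.17 summed). Aldoa, aldolase, did not pass (-0.45 ± 0.22, edgeR adjusted p = 0.15). Idh3a, a subunit of mitochondrial isocitrate dehydrogenase, rose in WT and fell in T2KO, from 11.1 ± 1.22 to 18.8 ± 6.68 CPM in wild-type and from 15.7 ± 9.35 to 6.64 ± 1.21 CPM in knockout cells. For Idh3a the interaction was -2.05 ± 0.44 (edgeR adjusted p = 0.0018, 0.073 summed). Pdhb of pyruvate dehydrogenase went from 30 ± 2.61 to 40.9 ± 9.58 CPM in wild-type and from 33 ± 1.27 to 21.4 ± 5.36 CPM in knockout cells (-1.10 ± 0.25, edgeR adjusted p = 0.0033, 0.14 summed), with -0.69 in libraries 2 and 4 alone (edgeR adjusted p = 0.13). Mdh2, malate dehydrogenase, went from 65.9 ± 1.93 to 94.8 ± 24.6 CPM in wild-type and from 81.1 ± 12.8 to 61.4 ± 8.85 CPM in knockout cells (-0.93 ± 0.26, edgeR adjusted p = 0.013, 0.21 summed). Idh1, the cytosolic isocitrate dehydrogenase, fell in both and further in T2KO, from 131 ± 11.7 to 76.6 ± 23.2 CPM in wild-type and from 214 ± 35.7 to 53.7 ± 9.45 CPM in knockout cells (-1.21 ± 0.27, edgeR adjusted p = 0.0029, 0.15 summed). In the respiratory chain, Ndufa6 of complex I fell in T2KO and did not pass in WT, from 120 ± 17.1 to 112 ± 19.2 CPM in wild-type and from 165 ± 5.11 to 73.3 ± 15.5 CPM in knockout cells. The interaction of Ndufa6 was -1.08 ± 0.22 (edgeR adjusted p = 0.0011, 0.13 summed). Atp5b of ATP synthase did not pass (-0.16 ± 0.20, edgeR adjusted p = 0.61).

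Genes that supply protein synthesis also lay mainly on the negative side. Of 30 ribosome biogenesis and Myc-linked genes, 0 passed with a positive and 9 with a negative interaction (30%, median -0.515), with 9 negative after rescaling, 13 with the GC and length offset and 1 with the pairs summed. Of all genes 8.49% were negative, 5.38% after rescaling, 7.44% with the offset and 38 of 12020 with the pairs summed. None of the 30 was positive at an unadjusted edgeR p under 0.05 or by DESeq2. Nop16, a nucleolar factor, was measured at 14.3, 10.9, 9.49 and 9.74 CPM in the wild-type libraries without LPS, 20.9, 27.7, 23.8 and 27.4 with LPS, 12.6, 11, 14 and 13.2 in the knockout libraries without LPS and 11.4, 9, 9.73 and 3.4 with LPS. LPS raised it in WT and lowered it in T2KO (-1.71 ± 0.31, edgeR adjusted p = 0.00026, 0.045 summed). Rrs1, another assembly factor, rose in both and less in T2KO, from 16.2 ± 2.47 to 137 ± 17.2 CPM in wild-type and from 18.7 ± 0.529 to 68.6 ± 14.2 CPM in knockout cells. For Rrs1 the interaction was -1.21 ± 0.23 (edgeR adjusted p = 0.00066, 0.1 summed). Srm, spermidine synthase, went from 5.66 ± 0.619 to 17.3 ± 6.95 CPM in wild-type and from 7.42 ± 2.83 to 4.8 ± 2.43 CPM in knockout cells (-2.18 ± 0.43, edgeR adjusted p = 0.00085, 0.051 summed). Of 26 ATF4 targets and amino acid supply genes, 1 passed with a positive and 9 with a negative interaction (3.85 and 34.6%), with 7 negative with the GC and length offset and 1 with the pairs summed. Eif4ebp1, which encodes the translation repressor 4E-BP1, was measured at 23, 18.8, 30.8 and 25 CPM in the wild-type libraries without LPS, 35.1, 42.2, 25.5 and 44.1 with LPS, 39.5, 30.8, 39.7 and 32.3 in the knockout libraries without LPS and 13, 12.7, 22.3 and 10.7 with LPS. With LPS every T2KO library was below every WT library, and without LPS the genotypes overlapped (-1.84 ± 0.29, edgeR adjusted p = 4.9e-05, 0.037 summed). Sars, seryl-tRNA synthetase, went from 112 ± 18.6 to 81.3 ± 10.2 CPM in wild-type and from 149 ± 62.9 to 40.9 ± 11 CPM in knockout cells. The interaction of Sars was -1.41 ± 0.32 (edgeR adjusted p = 0.0032, 0.14 summed), and -0.77 in libraries 1 and 3 alone (edgeR adjusted p = 0.077). Slc3a2, the heavy chain of amino acid exchangers, went from 95.3 ± 20.7 to 247 ± 52.2 CPM in wild-type and from 176 ± 42.8 to 227 ± 13.2 CPM in knockout cells. For Slc3a2 the interaction was -1.01 ± 0.25 (edgeR adjusted p = 0.006, 0.19 summed).

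Cytosolic ribosomal protein genes counted 3 positive and 16 negative of 63 (4.76 and 25.4%, beside 7.52 and 8.49% of all genes, median -0.513). The counts were 4 and 6 after rescaling (6.35 and 9.52%, beside 9.8 and 5.38% of all genes). With the GC and length offset they were 4 and 7 (6.35 and 11.1%, beside 6.32 and 7.44%). With the pairs summed 0 and 0 passed. At an unadjusted edgeR p under 0.05 the summed fit gave 3 and 7 (over all genes 2133 of 12020, both directions). Rps23 was measured at 921, 843, 857 and 827 CPM in the wild-type libraries without LPS, 3200, 1620, 2940 and 1560 with LPS, 963, 3550, 952 and 3190 in the knockout libraries without LPS and 829, 1540, 835 and 1490 with LPS. Libraries 1 and 3 stood above 2 and 4 in WT with LPS and below them in T2KO without LPS, and its interaction was -2.32 ± 0.40 (edgeR adjusted p = 0.00019, 0.067 summed). Rps6, the substrate of S6 kinase, went from 245 ± 31.5 to 541 ± 163 CPM in wild-type and from 332 ± 69.7 to 269 ± 10.2 CPM in knockout cells. The interaction of Rps6 was -1.44 ± 0.25 (edgeR adjusted p = 0.00015, 0.086 summed), and -0.58 in libraries 1 and 3 alone (edgeR adjusted p = 0.053). Rps9 moved the other way, from 2360 ± 726 to 1560 ± 194 CPM in wild-type and from 1260 ± 183 to 1890 ± 238 CPM in knockout cells. For Rps9 the interaction was 1.18 ± 0.24 (edgeR adjusted p = 0.00096, 0.087 summed). Many ribosomal protein genes have processed pseudogenes that can share reads, so single members are uncertain. Rpl26, Ndufs5 and Atp6v0c, which cells generally express, had 0 counts in all 16 libraries, so a 0 in this table need not be an absence of transcript.

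In cholesterol synthesis 3 of 25 passed, all positive (12%, beside 7.52% of all genes), and 0 with the pairs summed. At an unadjusted edgeR p under 0.05 the summed fit gave 3 positive and 1 negative (over all genes 2133 of 12020, both directions). Stard4, a sterol carrier, fell in WT and rose in T2KO, from 68.4 ± 4.63 to 36.8 ± 4.6 CPM in wild-type and from 28.9 ± 2.42 to 39 ± 13.8 CPM in knockout cells. For Stard4 the interaction was 1.34 ± 0.24 (edgeR adjusted p = 0.00023, 0.069 summed). Abcg1, the cholesterol exporter, was measured at 54, 53.7, 45.8 and 70.5 CPM in the wild-type libraries without LPS, 19.2, 13.2, 23.4 and 18.4 with LPS, 125, 102, 116 and 110 in the knockout libraries without LPS and 108, 168, 101 and 90.3 with LPS. It fell with LPS in WT and did not pass in T2KO (1.63 ± 0.31, edgeR adjusted p = 0.00061, 0.058 summed). Apoe, the apolipoprotein of lipid export, went from 3750 ± 615 to 4580 ± 329 CPM in wild-type and from 10400 ± 682 to 10100 ± 1220 CPM in knockout cells, and its interaction did not pass (-0.32 ± 0.20, edgeR adjusted p = 0.25). Lpl, lipoprotein lipase, rose from 2510 ± 288 to 6080 ± 1370 CPM in wild-type and from 431 ± 51.8 to 2770 ± 505 CPM in knockout cells. The interaction of Lpl was 1.41 ± 0.22 (edgeR adjusted p = 5.2e-05, 0.073 summed). In CPM its rise was larger in WT, so this positive sign is also one of proportion. Naaa, a lysosomal amidase of lipid amides, was measured at 35, 36, 28.6 and 34.1 CPM in the wild-type libraries without LPS, 44.1, 38.9, 55.3 and 38.5 with LPS, 12.3, 11, 9.26 and 10.7 in the knockout libraries without LPS and 54, 39.7, 42.5 and 49 with LPS. For Naaa the interaction was 1.69 ± 0.24 (edgeR adjusted p = 1.2e-05, 0.027 summed). T2KO libraries lay below all WT libraries without LPS and overlapped them with LPS. Dhrs9, a retinol dehydrogenase, fell in WT and rose in T2KO, from 32.3 ± 7.4 to 17.4 ± 3.06 CPM in wild-type and from 3.74 ± 1 to 10.8 ± 3.58 CPM in knockout cells. The interaction of Dhrs9 was 2.43 ± 0.38 (edgeR adjusted p = 4.9e-05, 0.017 summed).

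Surface receptors of macrophages had calls of both signs. The mannose receptor gene Mrc1 fell with LPS in WT and did not pass in T2KO, from 913 ± 245 to 284 ± 68.1 CPM in wild-type and from 987 ± 414 to 780 ± 173 CPM in knockout cells. For Mrc1 the interaction was 1.34 ± 0.35 (edgeR adjusted p = 0.0082, 0.17 summed). Clec7a, which encodes the β-glucan receptor dectin-1, went from 229 ± 32.8 to 118 ± 8.27 CPM in wild-type and from 188 ± 27.9 to 248 ± 32.8 CPM in knockout cells. The interaction of Clec7a was 1.36 ± 0.32 (edgeR adjusted p = 0.0039, 0.13 summed). Lilrb4a, an inhibitory receptor, rose from 246 ± 73 to 732 ± 47.1 CPM in wild-type and from 163 ± 21.6 to 1510 ± 400 CPM in knockout cells. For Lilrb4a the interaction was 1.64 ± 0.31 (edgeR adjusted p = 0.00056, 0.1 summed). Marco, a scavenger receptor induced by LPS, was negative, with all T2KO libraries above WT without LPS and overlap with LPS, from 2.73 ± 1.24 to 286 ± 49 CPM in wild-type and from 11.7 ± 2.21 to 333 ± 67.2 CPM in knockout cells. The interaction of Marco was -1.86 ± 0.34 (edgeR adjusted p = 0.00033, 0.059 summed). In CPM its mean rise was larger in T2KO, so this negative sign is one of proportion. The macrophage identity list counted 4 positive and 2 negative of 26 (15.4 and 7.69%) and the list of damage- and lipid-associated macrophage genes 3 and 3 of 25 (12% each). With the pairs summed 0 of either passed edgeR's test. At an unadjusted p under 0.05 the summed fit gave 3 and 1, and 3 and 3 (over all genes 2133 of 12020, both directions). Of 43 lysosomal genes 3 passed with a positive and 2 with a negative interaction (6.98 and 4.65%, both below the 7.52 and 8.49% of all genes). Among them the protease gene Ctsc rose from 360 ± 44.7 to 1270 ± 237 CPM in wild-type and from 221 ± 15.6 to 1870 ± 57.7 CPM in knockout cells. For Ctsc the interaction was 1.26 ± 0.19 (edgeR adjusted p = 2.6e-05, 0.075 summed). Ctsd, another protease, fell in T2KO, from 2750 ± 513 to 2240 ± 332 CPM in wild-type and from 5140 ± 853 to 2210 ± 304 CPM in knockout cells. The interaction of Ctsd was -0.92 ± 0.22 (edgeR adjusted p = 0.005, 0.19 summed).

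Beside Trem2, the named genes with the most negative interactions included Apex1. Apex1, an endonuclease of base excision repair (Entrez 11792, chromosome 14 at 50924949 to 50927188), was measured at 31.8, 30.9, 28.8 and 28.9 CPM in the wild-type libraries without LPS, 46.7, 143, 34.3 and 150 with LPS, 50.6, 28.3, 50.5 and 31.2 in the knockout libraries without LPS and 27.2, 9.66, 20 and 15.5 with LPS. It rose in WT and fell in T2KO (-2.76 ± 0.48, edgeR adjusted p = 0.00018, 0.045 summed), with WT LPS libraries 2 and 4 above 1 and 3. Tmem268, a membrane protein gene, was measured at 9.95, 9.6, 10.7 and 8.06 CPM in the wild-type libraries without LPS, 11.3, 16.9, 11.3 and 24 with LPS, 35.6, 33.6, 49.2 and 38.5 in the knockout libraries without LPS and 9.26, 16, 9.73 and 8.74 with LPS. T2KO libraries without LPS were the highest, without overlap (-2.55 ± 0.37, edgeR adjusted p = 2e-05, 0.025 summed). The 15 most negative genes had interactions from -4.31 to -2.59, 12 of them were higher in T2KO without LPS, 14 were lower with LPS, and 3 passed with the pairs summed. Cd38 at the negative end rested on a wild-type group with 1 count before LPS, and no fold is read from it.

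**Figure D3:**
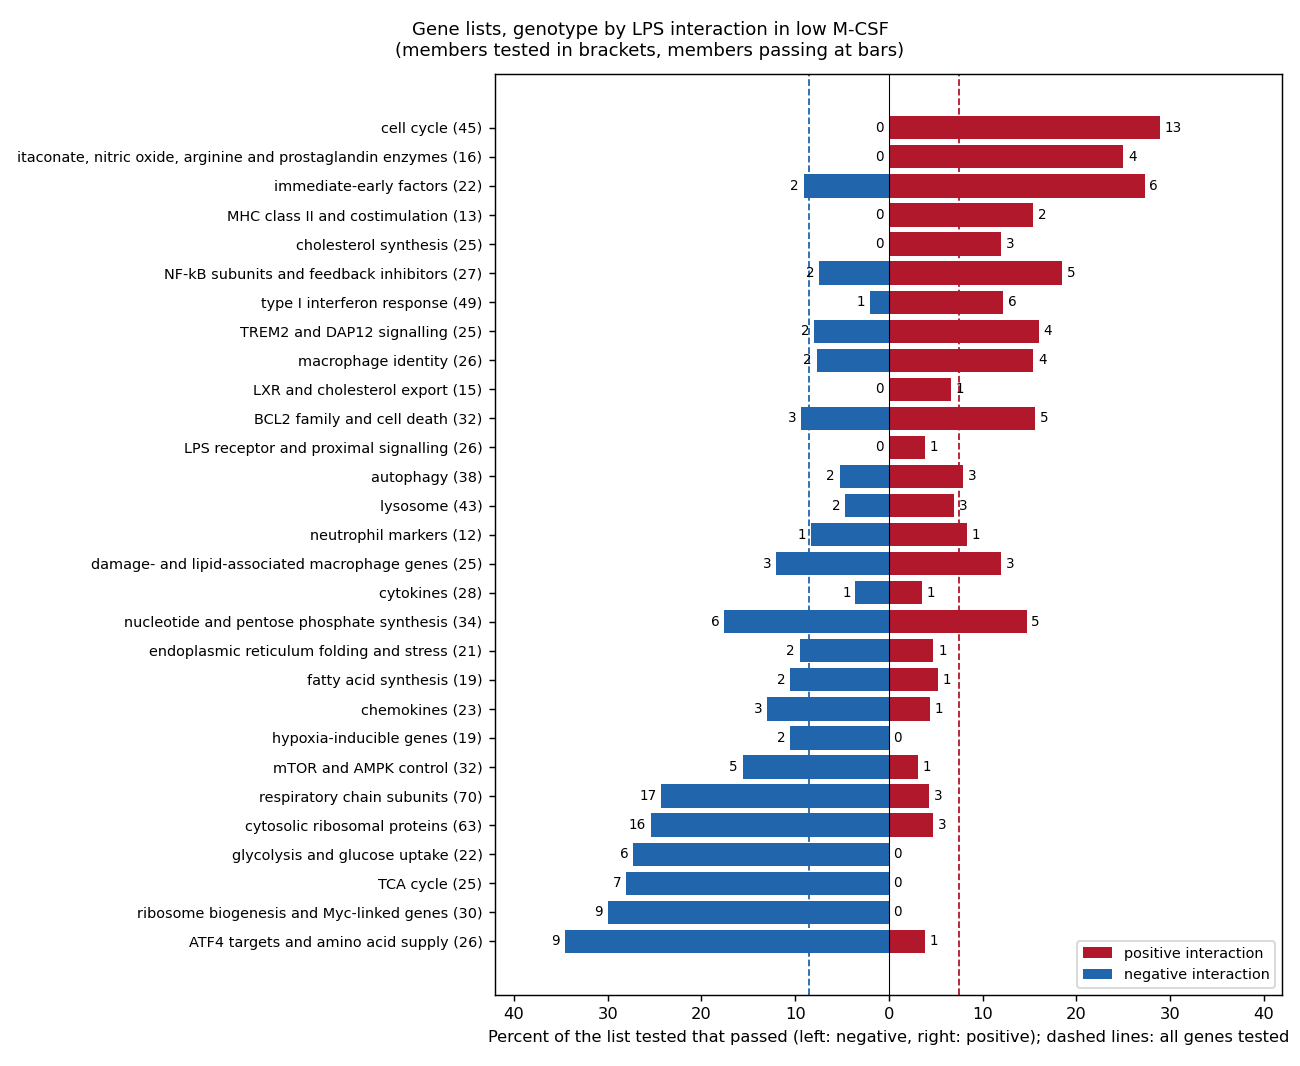
Percent of each gene list (29 lists with 10 or more members tested) that passed with a negative (left, blue) or positive (right, red) interaction, with the number of genes at each bar and dashed lines at the 8.49% and 7.52% of all genes tested. The cell cycle list reaches 28.9% positive, and the lists of ATF4 targets, ribosome biogenesis, the TCA cycle and glycolysis reach 34.6, 30, 28 and 27.3% negative.

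In normal M-CSF the same contrast gave far fewer calls. There 60 genes passed (0.534%), 37 positive and 23 negative, and the median interaction was 0.0037. Of these, 21 also passed in low M-CSF with the same sign and 3 with the opposite sign. The difference between the media was tested directly and passed for 329 genes (2.93%), 182 positive and 147 negative, 288 of them among the 1800. With the pairs summed, 0 of 12020 genes passed edgeR's test in normal M-CSF and 1 passed for the difference. At an unadjusted p under 0.05 edgeR gave 520 of the 12020 in normal M-CSF, fewer than the 1 in 20 that chance alone gives. DESeq2 on the separate libraries passed 194 and 719. The count of 329 was 185 without T2KO library 1 in normal M-CSF without LPS, 186 without library 3 of that group and 194 without WT LPS library 2 in normal M-CSF. It was 195 without T2KO LPS library 1 in low M-CSF, 200 without WT library 2 in low M-CSF without LPS and 501 without T2KO LPS library 4 in low M-CSF. The count of 60 was 30 to 39 without any 1 of 7 normal M-CSF libraries, namely T2KO LPS library 4, T2KO libraries 2 and 3 without LPS, WT LPS libraries 1, 2 and 4, and WT library 3 without LPS.

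Brip1 had the smallest adjusted p for the difference between media. In normal M-CSF it was lower with LPS in both genotypes, at a mean that went from 68.9 to 25.5 CPM in WT and from 56.8 to 21.2 CPM in T2KO, an interaction of 0.00 against 3.86 in low M-CSF (edgeR adjusted p = 3.9e-05 for the difference). Ccnd1 went from 1480 to 384 CPM in WT and from 2110 to 367 CPM in T2KO in normal M-CSF, an interaction of -0.58 (edgeR adjusted p = 0.00052 for the difference). Mastl was -0.26 there (0.0001 for the difference), Naaa -0.35 (0.00091) and Stard4 -0.64 (0.00097). Tpx2, a spindle assembly factor, had opposite signs, 1.72 in low and -1.58 in normal M-CSF (edgeR adjusted p = 0.00021 for the difference). These genes were named for their interaction in low M-CSF or for this difference, so their values describe it and do not compare the media as a whole. Trem2 was negative in both media, at -2.15 in normal M-CSF, and the difference of -1.61 passed (edgeR adjusted p = 0.028).

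**Figure D4:**
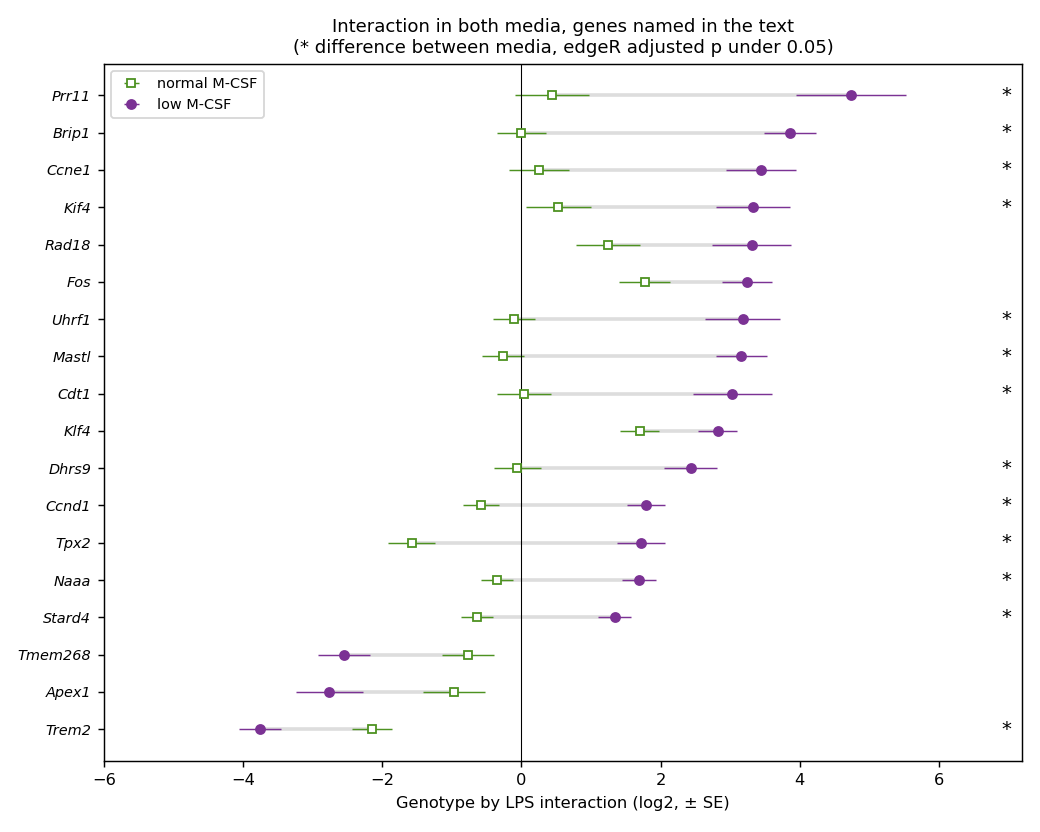
Genotype by LPS interaction (log2, ± SE) in low M-CSF (filled circles) and normal M-CSF (open squares) for 18 genes of the naming rule that are described in the text, leaving out 2 with 3 or fewer counts in a group. Asterisks mark the 13 genes whose difference between media passed, among them Brip1, which is 3.86 in low and 0.00 in normal M-CSF.

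Gene composition and other cell types were examined beside these results. The longest transcripts of genes with a positive interaction had a median GC content of 45.8% and length of 4249 bases, those with a negative one 52.3% and 2697 bases, and all tested genes 49.4% and 3394 bases. With an offset for both, an alternative added after seeing the data, 711 genes were positive (6.32%) and 837 negative (7.44%), with median GC contents of 48.8 and 47.7%. Lyz2, the macrophage lysozyme, had group means from 4230 to 5430 CPM. The 9 macrophage markers summed to 7890 to 11300 CPM over the 16 libraries. Single members moved opposite ways within that sum: with LPS in WT, Cx3cr1 fell from 1140 to 176 CPM and Cd14 rose from 126 to 1870 CPM. The sum of neutrophil markers moved with the groups: the 13 matched to the table summed to 188 to 209 CPM in WT without LPS, 417 to 461 in WT with LPS, 296 to 367 in T2KO without LPS and 642 to 779 in T2KO with LPS. Its members did not all move alike. With LPS in WT 7 of the 12 tested passed upward and 1 downward, with S100a9 from 40.9 to 90.2 CPM and Mmp8 from 55.8 to 26.6 CPM. Without LPS 8 passed as higher and 0 as lower in T2KO. Of the neutrophil markers Lcn2, lipocalin-2, had a negative interaction, from 2.28 ± 1.38 to 115 ± 17.4 CPM in wild-type and from 10.3 ± 2.29 to 142 ± 41.1 CPM in knockout cells. The interaction of Lcn2 was -1.84 ± 0.36 (edgeR adjusted p = 0.00084, 0.045 summed). In CPM the mean rise of Lcn2 was larger in T2KO, so its negative sign is one of proportion. Mmp8, a neutrophil collagenase, was positive, from 55.8 ± 12.9 to 26.6 ± 3.5 CPM in wild-type and from 43.4 ± 2.37 to 46 ± 3.58 CPM in knockout cells (1.15 ± 0.24, edgeR adjusted p = 0.0015, 0.086 summed). The monocyte markers summed to 835 to 860, 363 to 421, 1250 to 1340 and 1110 to 1340 CPM in the same order of groups. This sum joins members that went opposite ways, and of 4 tested 1 was higher and 1 lower in T2KO without LPS. F13a1 was 369 ± 44.8 CPM in WT and 1140 ± 34.3 CPM in T2KO without LPS, and Ccr2 477 ± 36.5 and 144 ± 14.2 CPM. Lymphocyte, erythroid and mast cell or basophil markers had no member that passed the filter on low counts, with sums of at most 3.4 CPM. The part of neutrophil and monocyte markers in the interaction was not tested. In such bulk samples fewer cells of a type and less RNA per cell cannot be told apart.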

How the data were processed

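RNA from the macrophages was made into barcoded, oligo-dT-primed 3' libraries, pooled by Actb qPCR and amplified in 12 cycles, per the labels' protocols, which mention no molecular identifiers, so counts include PCR copies. The deposited table holds read counts per gene for 32 libraries, and all 32 of its columns were matched to samples by name. The submitters' processing notes name STAR, HTSeq, DESeq2 and mm10. Versions, annotation and strand setting are not given in the sources used here.

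From these counts, edgeR 4.0.16 (R 4.3.3) fitted 1 mean for each of the 8 groups over all 32 libraries, with TMM factors and filterByExpr (11244 genes kept), and tested each contrast by its quasi-likelihood test, Benjamini-Hochberg adjusted over all genes at 0.05. TMM factors in low M-CSF were 1.149 to 1.231 and 1.172 to 1.243 without LPS (WT, T2KO) and 0.664 to 0.7516 and 0.5979 to 0.6714 with LPS. The floors cover counting error only, while SDs and SEs include the spread between libraries. The fit was tested on simulated data in which 200 genes held an interaction. For low M-CSF it recovered 2.99, 19.4 and 71.2% of those changed 1.5-, 2- and 4-fold, and 3 of its 65 calls were false. The simulated libraries were independent, so this test does not cover the likeness of libraries 1 and 3 or of 2 and 4. Alternatives were DESeq2 1.42.0, limma-voom (limma 3.58.1), RLE factors, a rescaling to a median interaction of 0, other filters, each medium alone, a replicate block, library pairs summed or alone, thinning to 3068863 counts, leaving out each library, and, added after seeing the data, an offset for GC content and transcript length (97.3% of genes had both).

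Named genes were Trem2, Tyrobp, Csf1r and Csf1; the 15 most positive and 15 most negative that passed with mean CPM of at least 5 and the same sign in libraries 1 and 3 alone and 2 and 4 alone; 8 per direction by highest group mean; 10 with opposite LPS responses; for each of 39 gene lists (36 with a member tested) up to 4 passing per direction and 2 not passing; and 6 by the difference between media. Not all are printed, and some genes are not reported here. Rpl26, Ndufs5 and Atp6v0c were named after their values were seen. The contrast and lists were chosen with earlier results of these data known. Promoters are from RefSeq.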

Additional observations from a re-analysis of the deposited data

Results flagged for a closer look

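For 13 gene and group combinations of the 317 checked (group mean of at least 5 CPM), 1 of the 4 libraries stood apart from the other 3 by Dixon's criterion at the 95% level. Chance alone flags about 1 in 20 groups, and the genes are not independent of each other. In WT without LPS these were Ccl6 at 101 CPM in library 2 (others 135 to 142), Csf1 at 8.9 CPM in library 4 (others 4.85 to 5.38), Csf1r at 693 CPM in library 2 (others 1000 to 1060) and Kcnj10 at 5.25 CPM in library 2 (others 8.03 to 8.39). In WT with LPS these were Ccnd2 at 1300 CPM in library 1 (others 1180 to 1190), Fos at 64.9 CPM in library 2 (others 51.7 to 53.5) and Rsad2 at 20200 CPM in library 4 (others 22800 to 23300). In T2KO without LPS these were Cdt1 at 4.4 CPM in library 4 (others 8.16 to 8.81), Cmpk2 at 55.2 CPM in library 1 (others 28 to 30.2), Tpx2 at 6.53 CPM in library 1 (others 21.4 to 23.1) and Tyrobp at 1370 CPM in library 3 (others 1150 to 1180). In T2KO with LPS these were Dusp5 at 88.6 CPM in library 1 (others 56.8 to 61.3) and Tmem268 at 16 CPM in library 2 (others 8.74 to 9.73).

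For 34 of the named genes the interaction in low M-CSF differed from that in normal M-CSF by the test of the difference itself (edgeR's quasi-likelihood test, adjusted p from 3.9e-05 to 0.046). The difference, low minus normal on the log2 scale, was positive for 22 of them: Prr11 (4.30), Brip1 (3.86), Mastl (3.42), Tpx2 (3.30), Uhrf1 (3.29), Ccne1 (3.18), Cdt1 (2.99), Kif4 (2.80), Dhrs9 (2.49), Ccnd1 (2.37), Vav3 (2.35), Abcg1 (2.08), Naaa (2.04), Stard4 (1.99), Dusp4 (1.92), Clec7a (1.85), Ccnd2 (1.79), Ptpn6 (1.63), Lilrb4a (1.57), Pik3cb (1.56), Lpl (1.17) and Tnip3 (1.13). It was negative for 12: Rps23 (-2.88), Ifit3 (-2.60), Idh3a (-2.14), Lcn2 (-2.14), Il1b (-2.09), Srm (-1.99), Eif4ebp1 (-1.88), Pfkl (-1.65), Trem2 (-1.61), Pfkfb3 (-1.59), Rps6 (-1.31) and Ndufa6 (-1.17). The media were measured in separate libraries, 4 a group in each, and with the pairs summed 1 gene of all tested passed for this difference. Many of these genes were named for their interaction in low M-CSF or for this difference, so their number does not compare the media.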

How the results depend on the processing

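Of the 74 named genes that passed for the interaction in low M-CSF, 67 passed on leaving out each library in turn, 22 passed under every alternative run, and 0 turned in sign under any of them. The naming rule required for many of them the same sign in libraries 1 and 3 alone and in 2 and 4 alone. All alternatives also reuse the same libraries, so the lack of turned signs is no separate support. With libraries summed in pairs 23 of the 74 passed, with libraries 1 and 3 alone 65 and with 2 and 4 alone 66. The count of 1800 fell to 91 with pairs summed (53 positive, 38 negative), where each group has 2 samples, and to 959 with the low M-CSF libraries alone (369 negative). Negative genes numbered 568 with limma-voom and 605 with the median interaction set to 0, against 955. Leaving out 1 library gave 1225 to 2006 genes (602 to 962 positive, 623 to 1094 negative), 30 to 60 in normal M-CSF and 185 to 501 for the difference between media.

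In normal M-CSF, against 60, DESeq2 gave 194, the GC and length offset 94, libraries 1 and 3 alone 1023 and libraries 2 and 4 alone 821. No filter on low counts gave 102 and the normal M-CSF libraries alone 120. Pairs summed gave 0 by edgeR's test, and 520 of 12020 at an unadjusted p under 0.05, fewer than chance alone gives. For the difference between media, against 329, the counts were 719 with DESeq2, 2187 with libraries 1 and 3 alone, 720 with 2 and 4 alone, 1 with pairs summed and 184 with libraries thinned to equal depth. The genotype difference without LPS (1879) gave 3013 with libraries 1 and 3 alone, 621 with pairs summed and 1231 with the low M-CSF libraries alone, and that with LPS (2147) gave 485 with pairs summed. The cause of these shifts was not tested.

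Library numbers did not pair the samples: the correlation of deviations between same-numbered libraries ran from -0.496 to 0.412 (median -0.0762, 24 pairs). With the number as a replicate block 1663 genes passed (784 positive, 879 negative), and all 74 named genes still passed. Depth limits genes near the floor of 3 counts, such as Kcnj10, Treml1 and Cd38.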
